A study of Mus musculus with 42 samples.

Results

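The RNA levels of 7 genes whose surface proteins are used to enrich spermatogonia were examined: *Thy1*, *Epcam*, *Cdh1*, *Cd9*, *Cd24a*, *Adgra3* and *Mcam*. They were listed by name and found by gene ID in a count table of 27179 genes, and all 7 passed the filter on low counts in every comparison. The 12 RNA-seq libraries came from testes of C57BL/6J males at 10 dpp, with 3 libraries in each of 4 groups. Controls were Ddx4-Cre/Chd8+/F and mutants Ddx4-Cre/Chd8F/-, so both genotypes carried the Cre transgene and a floxed *Chd8* allele. Ddx4-Cre deletes the floxed allele in germ cells only. The second allele was + in controls and null in mutants. In the study's cross the null allele is inherited, so somatic cells of mutants carry it too and those of controls do not. In each genotype, c-Kit+ cells were first retained on magnetic beads and Thy1+ cells were then retained from the cells that had passed through. The study's methods describe the cells as taken from the testes of 3 male pups for each analysis, and they do not say whether pups were pooled. Therefore, p-values measure the spread between these libraries.

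Spermatogonia lie among Sertoli cells at the base of the seminiferous tubule, and no surface protein is theirs alone. Sorting protocols therefore rely on adhesion proteins and receptors that spermatogonia carry and most other cells of the tubule lack. THY1 (CD90) is a small protein held on the outer membrane by a glycosylphosphatidylinositol (GPI) anchor, and it is also carried by fibroblasts, other stromal cells and T cells. EPCAM and E-cadherin (the product of *Cdh1*) are epithelial adhesion proteins, CD9 is a tetraspanin that organises other proteins in the membrane, and CD24 is a small, heavily glycosylated GPI-anchored protein. ADGRA3 (GPR125) is an adhesion G protein-coupled receptor, and MCAM (CD146) is an adhesion protein of the immunoglobulin superfamily that endothelial and smooth muscle cells carry as well.

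In mm10, *Thy1* (gene ID 21838) lies on chr9:44043384-44048579 and *Mcam* (84004) on chr9:44134658-44142726, both on the plus strand, with 86078 bases and 5 other named genes between them. *Epcam* (17075) lies on chr17:87635979-87651127, *Cdh1* (12550) on chr8:106603368-106670246 and *Cd24a* (12484) on chr10:43579169-43584265, all on the plus strand. *Cd9* (12527) on chr6:125460266-125494755 and *Adgra3* (70693) on chr5:49959951-50058996 lie on the minus strand. The exons of *Cdh1* share 1100 bases, and those of *Cd24a* 482 bases, with a gene on the opposite strand that has no symbol. The counting command set no option for strand and none for overlapping genes, so reads in these stretches were assigned to neither gene.

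The RefSeq table of promoters (GRCm38.p6) held entries for *Adgra3*, *Cd9*, *Epcam* and *Mcam*. The 250 bases upstream of the start of *Epcam* and of *Mcam* are shown because these members differed between the sorted populations in opposite directions. Capitals mark GC boxes (GGGCGG on either strand), and both sequences run 5′ to 3′ along the plus strand, at chr17:87635729-87635978 for *Epcam* and chr9:44134408-44134657 for *Mcam*.
Epcam: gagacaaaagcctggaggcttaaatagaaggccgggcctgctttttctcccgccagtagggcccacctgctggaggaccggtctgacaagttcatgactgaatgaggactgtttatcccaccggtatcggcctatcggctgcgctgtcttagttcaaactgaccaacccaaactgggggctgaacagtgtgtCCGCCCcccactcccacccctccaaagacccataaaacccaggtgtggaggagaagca
Mcam: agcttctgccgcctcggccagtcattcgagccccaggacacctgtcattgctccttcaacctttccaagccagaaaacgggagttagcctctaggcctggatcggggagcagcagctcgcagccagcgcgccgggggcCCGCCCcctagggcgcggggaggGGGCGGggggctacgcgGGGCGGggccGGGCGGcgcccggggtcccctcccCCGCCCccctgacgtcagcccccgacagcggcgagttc

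The *Mcam* promoter held 5 GC boxes and was 73.6% G and C, against 1 GC box and 56.4% in that of *Epcam*. *Cd9* held 2 GC boxes and *Adgra3* 1, and 32.7% of the 32851 promoters in the table held at least 1. No CCAAT and no TATAAA was found on either strand of these 4 windows, whereas 33.8% and 12.4% of all promoters held them. The *Mcam* window also held TGACGTCA, the palindrome of the cAMP response element, which was present in 1.5% of all promoters. These matches describe the letters of the windows and say nothing of the factors bound there.

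The libraries held 32266861 to 45396233 counts, and 65.6% to 69.5% of the counts from 1 to 19 were even, since both reads of a fragment were counted. Levels are given as CPM (counts scaled to a common library size) after TMM normalization over the 12 libraries. *Chd8* itself was at 258.3 to 315.5 CPM in all 4 groups, and its counts cover the whole gene rather than the floxed exons, so they do not check the genotype. *Kit*, whose product retained the c-Kit+ cells, was at 171.3 to 431.9 CPM in Thy1+ libraries and 626.1 to 781.4 CPM in c-Kit+ libraries.

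Both populations carried RNA of somatic cells, which touches every comparison below. The summed level of 7 stromal markers (*Col1a1*, *Col1a2*, *Col3a1*, *Pdgfra*, *Dcn*, *Lum* and *Tcf21*) was 11119 to 14491 CPM in control Thy1+ libraries and 12455 to 19182 CPM in mutant Thy1+ libraries. In c-Kit+ libraries it was 1816 to 2274 CPM in controls and 3292 to 4378 CPM in mutants. The replicates numbered 1 of both Thy1+ groups stood apart in 9 Sertoli cell markers, which summed to 2104 CPM in the control and 2766 CPM in the mutant, against 476.0 to 1023 CPM in the other 4 Thy1+ libraries. Sertoli cell markers were also higher in every mutant c-Kit+ library (2333 to 2555 CPM) than in any control c-Kit+ library (574.4 to 1463 CPM). Of the germ cell, Sertoli cell, stromal, Leydig cell and peritubular myoid markers, none was at 0 in a whole group. In bulk samples like these, fewer cells of a type and less RNA per cell cannot be told apart.

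**Figure D1:**
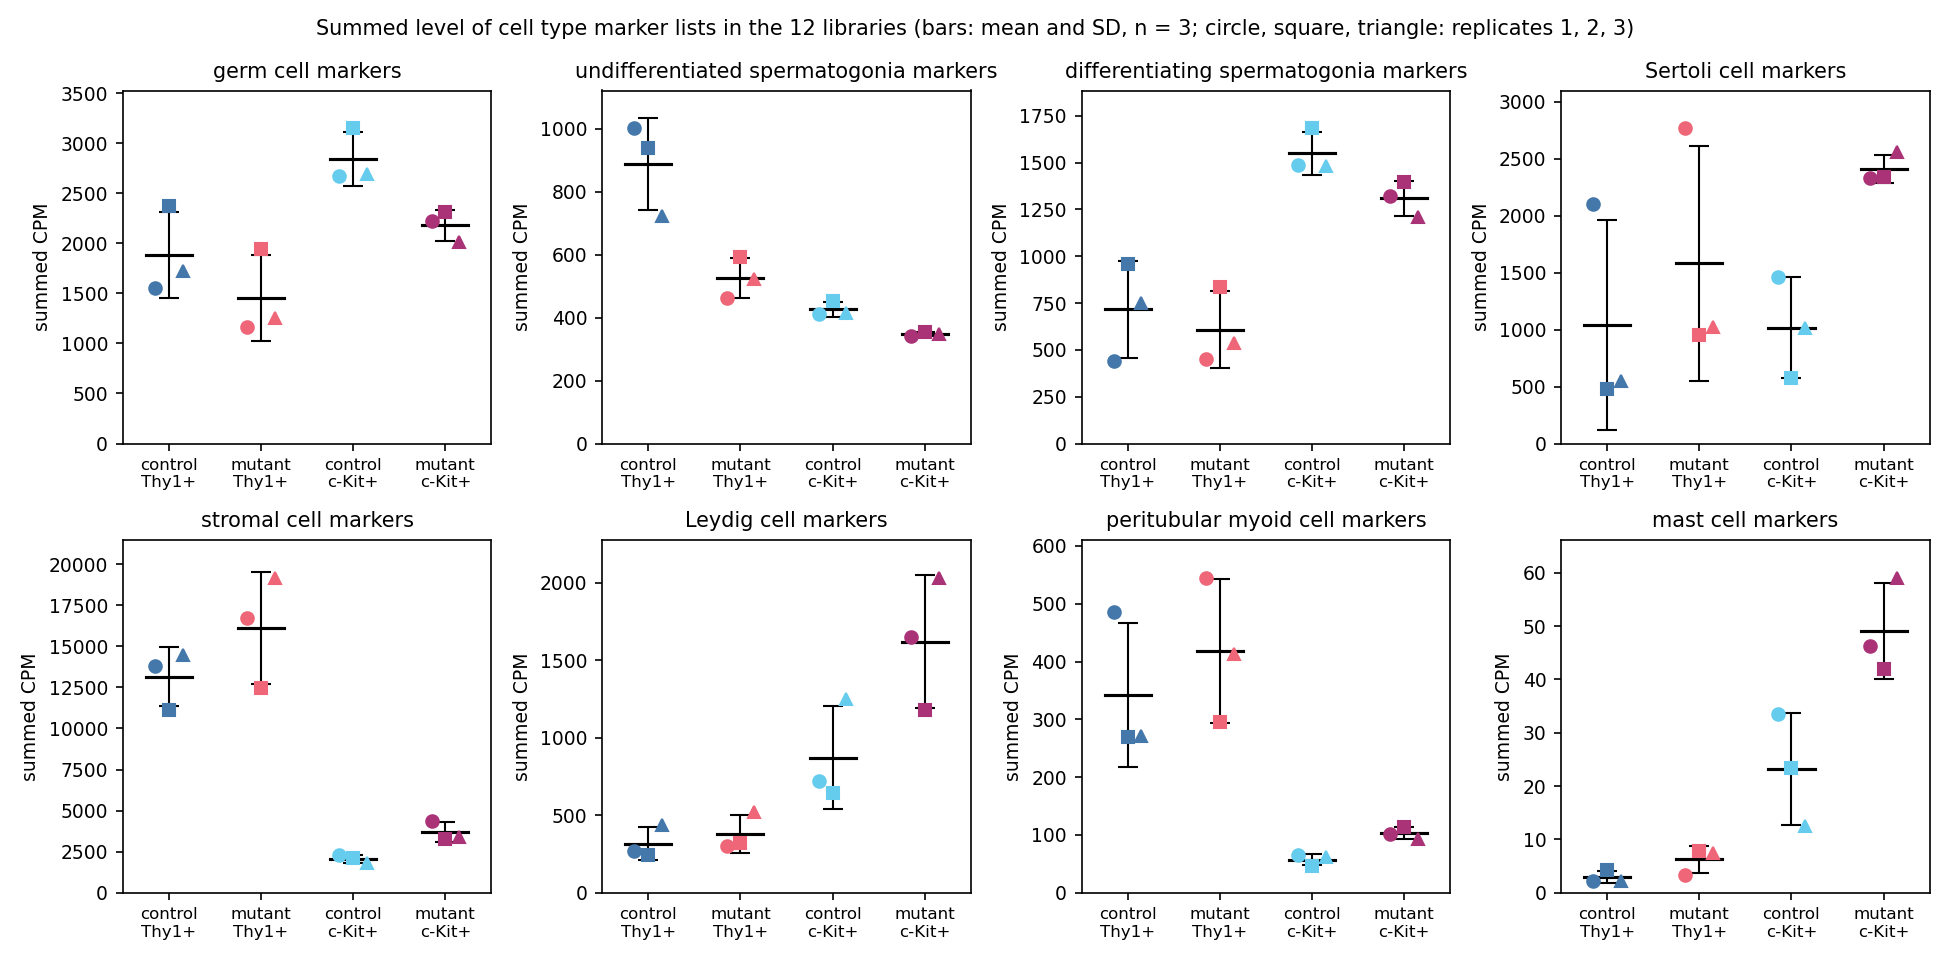
Summed CPM (y axis) of 8 lists of cell type markers in the 12 libraries, by group (x axis). Each point is a library, with the mean and SD of 3 libraries in black. Stromal and peritubular myoid markers were higher in every Thy1+ library than in any c-Kit+ library, and Sertoli cell markers were highest in replicate 1 of both Thy1+ groups and in the mutant c-Kit+ libraries.

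Levels of different genes were compared per kilobase of exon, with the full exon length. Reads in 482 of the 1816 exon bases of *Cd24a* and 1100 of the 4413 of *Cdh1* were not counted, as given above. The levels per kb of these genes are therefore too low beside those of the other members. In control Thy1+ cells, *Mcam* led with 96.1 ± 17.1 CPM per kb (SD, n = 3), followed by *Cd9* with 63.4 ± 9.98 and, with overlapping ranges, *Adgra3* with 33.5 ± 5.77 and *Epcam* with 29.7 ± 5.56 CPM per kb. *Cd24a* was at 20.5 ± 0.451 CPM per kb there. *Thy1*, the sorting antigen itself, was sixth with 7.27 ± 0.809 CPM per kb, and *Cdh1* was lowest with 1.71 ± 0.238 CPM per kb. The RNA of the antigen that retained these cells was thus below that of 5 other surface markers in the same libraries.

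In control c-Kit+ cells, *Mcam* was again first with 57.8 ± 3.28 CPM per kb, and *Epcam* was second with 44.5 ± 2.31 CPM per kb. *Adgra3* (31.0 ± 2.63), *Cd24a* (28.5 ± 1.80) and *Cd9* (27.5 ± 3.13 CPM per kb) followed with overlapping ranges. In mutant c-Kit+ cells *Cd24a* had the highest mean, 59.6 ± 14.0 CPM per kb, although its range overlapped that of *Mcam* (43.7 ± 0.959 CPM per kb). In mutant Thy1+ cells the ranges of *Mcam* (60.8 ± 4.40), *Cd9* (52.8 ± 3.64), *Adgra3* (41.7 ± 6.58) and *Cd24a* (31.3 ± 6.24 CPM per kb) each overlapped the next. The places and overlaps of *Cd24a* in these orders hold only for the full exon length, which sets its level too low.

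**Figure D2:**
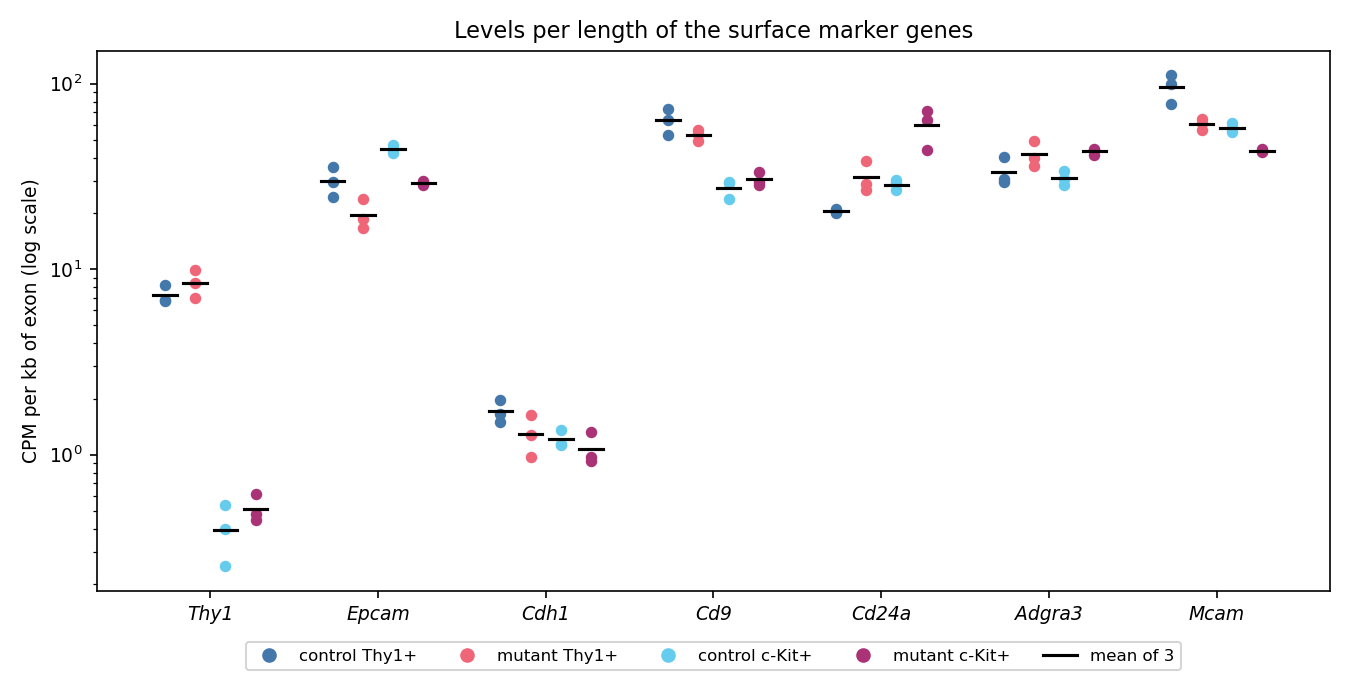
CPM per kb of exon (y axis, log scale) of the 7 genes in the 4 groups, with 1 point a library and the group mean as a bar. Full exon lengths were used, which sets *Cdh1* and *Cd24a* too low beside the other genes. *Cdh1* lay between 0.926 and 1.97 CPM per kb in all 12 libraries, and *Thy1* lay at 6.77 to 9.85 CPM per kb in Thy1+ libraries against 0.251 to 0.617 CPM per kb in c-Kit+ libraries.

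To ask how the markers differ between the sorted populations, control Thy1+ and control c-Kit+ libraries were compared first. A gene was called where the quasi-likelihood test of edgeR gave an FDR (Benjamini-Hochberg) below 0.05 and the log2 fold change exceeded 0.5 in either direction. *Thy1*, *Cd9* and *Mcam* were higher in Thy1+ cells and *Epcam* was lower, while *Cdh1*, *Cd24a* and *Adgra3* were not called. Of all 17350 genes tested, 20.7% were called higher and 7.08% lower in Thy1+ cells. The median log2 fold change was 0.52 over the 7 genes and 0.03 over all genes tested.

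*Thy1* was at 14.2, 11.7 and 11.9 CPM in control Thy1+ libraries and at 0.932, 0.686 and 0.436 CPM in control c-Kit+ libraries. The groups lay far apart, as the sort by this antigen sets them, so this difference is a check of the sort and not a finding. Its log2 fold change was 4.22 ± 0.28 (SE, FDR = 2.4e-05). The c-Kit+ levels rest on 15 to 32 counts a library.

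*Cd9* was at 87.2, 63.4 and 76.1 CPM in control Thy1+ libraries and at 34.7, 28.5 and 35.1 CPM in control c-Kit+ libraries. All Thy1+ libraries exceeded all c-Kit+ libraries, by a log2 fold change of 1.23 ± 0.15 (FDR = 0.00035). *Mcam* was at 320.9, 289.1 and 223.8 CPM in control Thy1+ libraries and at 157.8, 166.9 and 176.8 CPM in control c-Kit+ libraries. It also separated the populations without overlap, by 0.76 ± 0.13 on the log2 scale (FDR = 0.0032).

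*Epcam* went the other way, with 50.2, 73.1 and 60.6 CPM in control Thy1+ libraries and 87.6, 96.9 and 90.6 CPM in control c-Kit+ libraries. The ranges did not overlap, and the log2 fold change was -0.56 ± 0.13 (FDR = 0.012). The call was lost without control Thy1+ replicate 1 (log2 fold change -0.45, FDR = 0.014) and without control c-Kit+ replicate 2 (-0.51, FDR = 0.052). *Cd24a* was likewise lower in every control Thy1+ library (36.7, 36.9 and 38.2 CPM) than in the control c-Kit+ libraries (54.6, 52.7 and 48.2 CPM). Its log2 fold change of -0.45 ± 0.10 had an FDR of 0.0086 and fell short of the minimum of 0.5. It was called without control Thy1+ replicate 3 (-0.51) and without control c-Kit+ replicate 3 (-0.52).

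*Cdh1* was at 7.34, 8.68 and 6.61 CPM in control Thy1+ libraries and at 6.0, 5.03 and 5.0 CPM in control c-Kit+ libraries. These groups did not overlap, and the log2 fold change of 0.52 ± 0.19 had an FDR of 0.055. With the replicate number as a block it was 0.52 ± 0.18 and called (FDR = 0.040), in a fit that called 21.8% of all genes higher and 8.38% lower. *Adgra3* did not separate the populations, with 179.7, 132.6 and 137.8 CPM in Thy1+ and 151.1, 127.7 and 138.0 CPM in c-Kit+ control libraries. The interval of its log2 fold change ran from -0.17 to 0.44 (95%, n = 3 a group).

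Cell type markers differed between these populations as well. All 7 stromal, 8 of 10 undifferentiated spermatogonia, 6 of 7 macrophage, 5 of 6 peritubular myoid, 4 of 6 T cell and 3 of 7 endothelial markers were called higher in control Thy1+ cells. Of the differentiating spermatogonia markers 5 of 6, of the Leydig cell markers 5 of 7, of the germ cell markers 3 of 7 and of the mast cell markers all 4 tested were called lower, while no Sertoli cell marker was called. The 5 include *Kit*, whose difference the sort sets as it does that of *Thy1*. The T cell list, which bears on *Thy1*, had a median log2 fold change of 2.28 over its 6 markers. Its summed level differed less, with 11.1 to 11.5 CPM (control Thy1+) against 6.11 to 8.38 CPM (control c-Kit+). In the sum, *Cd3e* alone went the other way, with means of 2.22 against 4.05 CPM in the same order. *Lck* had means of 4.33 against 2.72 CPM, and *Cd3g* of 2.25 against 0.077 CPM. The part of these cell types in the values of *Thy1*, *Cd9*, *Mcam* and *Epcam* was not tested.

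The same comparison was made in mutant cells, where *Thy1*, *Cd9* and *Mcam* were again higher in Thy1+ cells and both *Epcam* and *Cd24a* were lower. Of 17346 genes tested, 15.3% were called higher and 5.03% lower. The median log2 fold change was 0.32 over the 7 genes, again with *Thy1* among them, against -0.03 over all genes tested. *Thy1* was at 12.2, 17.1 and 14.6 CPM in mutant Thy1+ and 0.767, 0.827 and 1.07 CPM in mutant c-Kit+ libraries, again as the sort sets it.

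*Cd9* was at 58.3, 63.5 and 66.9 CPM in mutant Thy1+ libraries and at 34.1, 35.3 and 39.9 CPM in mutant c-Kit+ libraries, without overlap. The log2 fold change was 0.83 ± 0.10 (FDR = 0.00058). *Cd24a* was at 52.4, 48.4 and 69.7 CPM in mutant Thy1+ libraries and at 129.1, 80.0 and 115.8 CPM in mutant c-Kit+ libraries. All c-Kit+ libraries were higher, and the log2 fold change was -0.89 ± 0.19 (FDR = 0.011). Whether the population difference of *Cd24a* or *Cd9* changed with genotype was tested as the interaction given below.

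*Mcam* and *Epcam* were called in mutants with values close to the minimum. *Mcam* was at 178.1, 187.0 and 162.0 CPM in mutant Thy1+ libraries and at 123.5, 126.2 and 129.1 CPM in mutant c-Kit+ libraries, with no overlap. Its log2 fold change was 0.52 ± 0.08 (FDR = 0.0027), and the call was lost without mutant Thy1+ replicate 2 (0.48) and without mutant c-Kit+ replicate 1 (0.49). *Epcam* was at 34.3, 49.1 and 38.4 CPM in mutant Thy1+ and 60.3, 58.7 and 61.5 CPM in mutant c-Kit+ libraries, also with no overlap. Its log2 fold change was -0.52 ± 0.14 (FDR = 0.023), and the call was lost in 5 of 6 fits that left out 1 library, which put it between -0.67 and -0.40. It held without mutant Thy1+ replicate 2 alone.

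*Cdh1* (4.26, 7.21 and 5.67 CPM in mutant Thy1+, 4.28, 4.09 and 5.82 CPM in mutant c-Kit+ libraries) overlapped between the populations, with an interval of the log2 fold change from -0.24 to 0.88. *Adgra3* (219.3, 162.1 and 178.8 CPM against 183.8, 196.1 and 199.9 CPM) overlapped as well, with an interval from -0.27 to 0.25. *Adgra3*, at 127.7 to 219.3 CPM in all 12 libraries, and *Cdh1*, at 4.09 to 8.68 CPM, were thus called between the populations in neither genotype by the unblocked test.

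**Figure D3:**
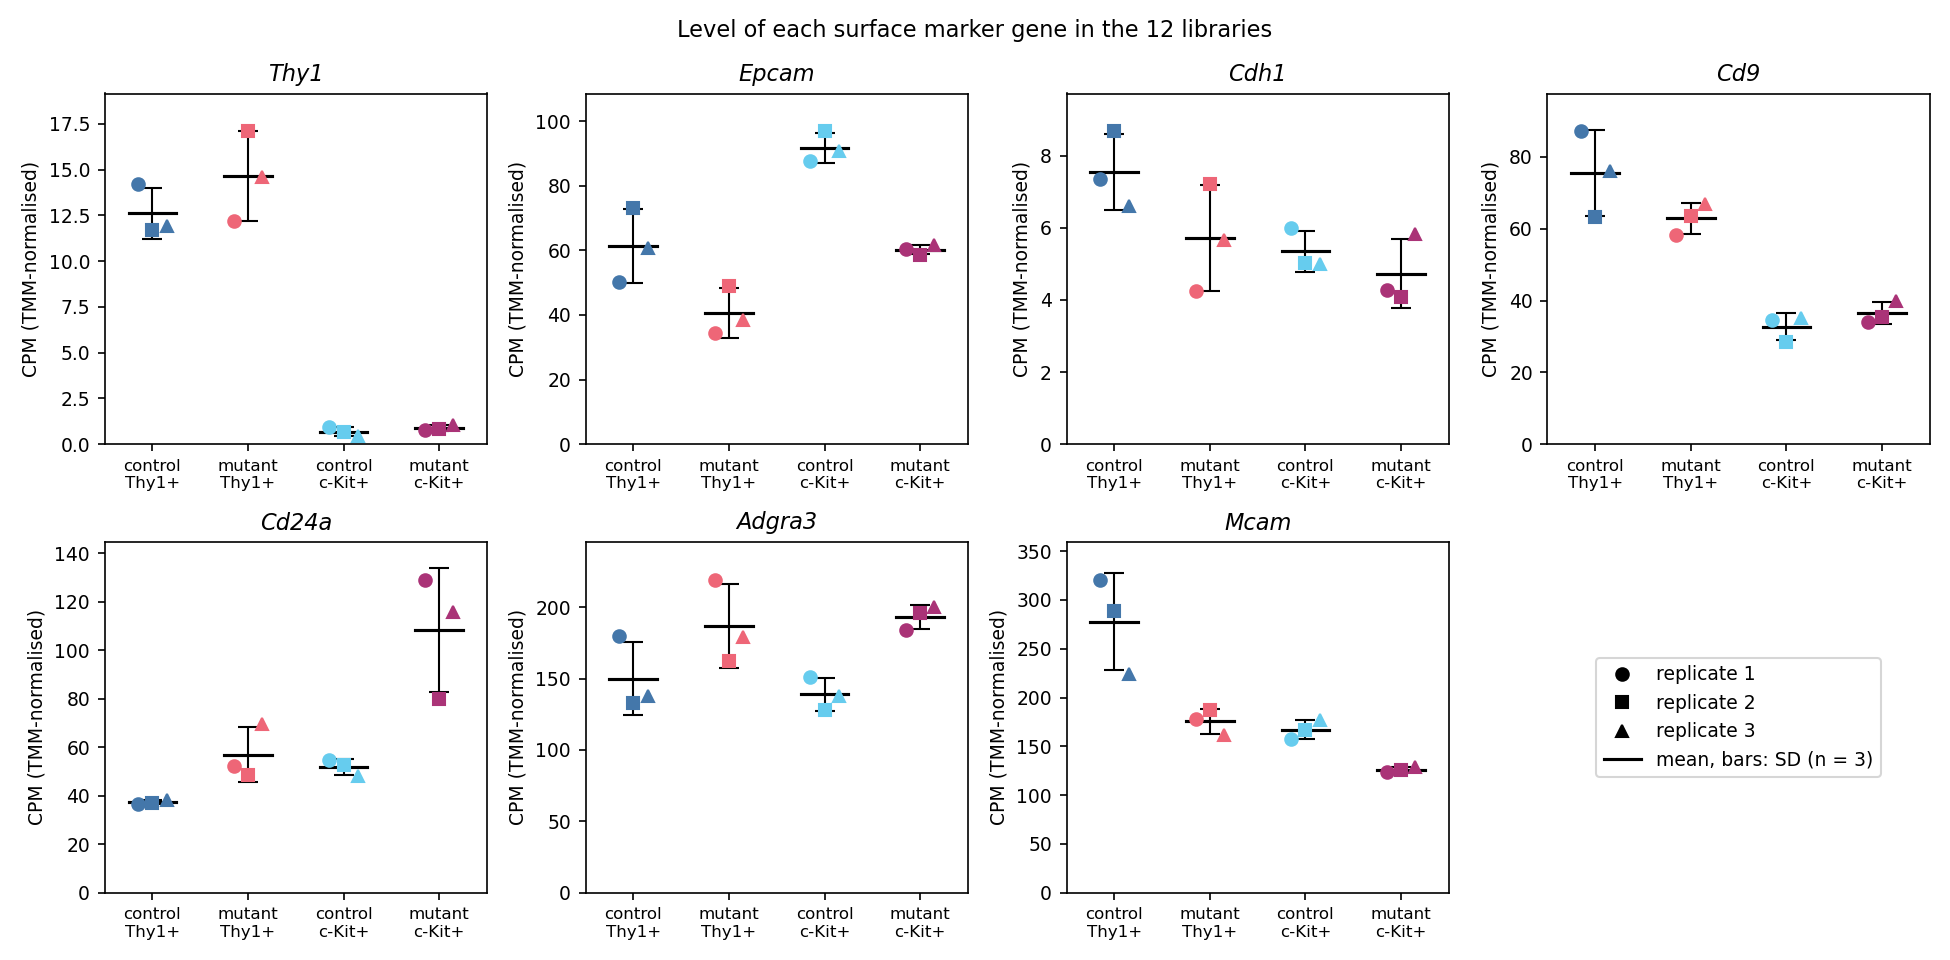
CPM (y axis, from 0) of each of the 7 genes in the 12 libraries, by group (x axis). Points are libraries (circle, square and triangle for replicates 1, 2 and 3), bars are the mean and SD of 3 libraries. *Cd24a* reached 80.0 to 129.1 CPM in mutant c-Kit+ cells against 48.2 to 54.6 CPM in control c-Kit+ cells, and *Mcam* was highest in control Thy1+ cells.

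To ask whether the markers change when *Chd8* is lost, mutants were compared with controls within each population. In c-Kit+ cells, *Cd24a* rose and *Epcam* fell, and the other 5 genes were not called. Of 17134 genes tested, 14.8% were called higher and 7.41% lower in mutants. The median log2 fold change was 0.10 over the 7 genes and 0.01 over all genes tested.

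*Cd24a* was at 54.6, 52.7 and 48.2 CPM in control c-Kit+ libraries and at 129.1, 80.0 and 115.8 CPM in mutant c-Kit+ libraries. Every mutant library was above every control library, and the log2 fold change was 1.00 ± 0.15 (FDR = 0.00071), a 2.01-fold increase. The mutant libraries spread more widely than the controls, with an SD of 25.4 against 3.26 CPM. *Epcam* was at 87.6, 96.9 and 90.6 CPM in controls and at 60.3, 58.7 and 61.5 CPM in mutants. It fell in all 3 mutant libraries to a narrow range below all controls, with a log2 fold change of -0.67 ± 0.07 (FDR = 0.00021).

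*Mcam* and *Adgra3* passed the FDR but not the minimum fold change. *Mcam* was at 157.8, 166.9 and 176.8 CPM in control c-Kit+ and 123.5, 126.2 and 129.1 CPM in mutant c-Kit+ libraries, without overlap, and its log2 fold change was -0.46 ± 0.06 (FDR = 0.00054). It was called without control c-Kit+ replicate 1 (-0.51). *Adgra3* was at 151.1, 127.7 and 138.0 CPM in controls and at 183.8, 196.1 and 199.9 CPM in mutants, so all mutant libraries were higher, with a log2 fold change of 0.42 ± 0.07 (FDR = 0.0016).

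*Cd9* stayed between 28.5 and 39.9 CPM in all 6 c-Kit+ libraries, with overlap and an interval of the log2 fold change from -0.14 to 0.33. *Cdh1* overlapped between 4.09 and 6.0 CPM, with an interval from -0.65 to 0.18. *Thy1* rested on 15 to 37 counts a library in c-Kit+ cells, and its interval from -0.56 to 1.19 was the widest of the 7.

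Cell type markers moved with genotype in c-Kit+ cells. All 9 Sertoli cell, all 7 stromal and all 7 endothelial markers were called higher in mutants, together with 4 of 7 Leydig cell markers, 3 of 6 peritubular myoid markers and 3 of 4 mast cell markers that could be tested. With the replicate number as a block, all 7 Leydig cell markers, all 4 mast cell markers and 4 of 7 macrophage markers were called higher. Among germ cell markers, 1 of 7 (*Tex101*) was called lower, with a median log2 fold change of -0.29 over the list. Their summed level was nevertheless lower in every mutant c-Kit+ library (2010.1 to 2313.7 CPM) than in any control c-Kit+ library (2678.4 to 3150.5 CPM). Of the differentiating spermatogonia markers 3 of 6 (*Rec8*, *Prdm9* and *Stra8*) were lower, and among 9 tested markers of undifferentiated spermatogonia *Pou5f1* and *Lin28a* were lower and *Etv5* was higher. The part of these shifts in the values of *Cd24a*, *Epcam*, *Mcam* and *Adgra3* was not tested.

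In Thy1+ cells, no gene of the 7 and none of 17416 tested genes was called between mutants and controls by the unblocked quasi-likelihood test (0.0% higher and 0.0% lower). At an unadjusted p under 0.05 there were 3 of the 7 (*Mcam*, *Cd24a* and *Epcam*) and 2151 of all genes. Other tests without the block called genes in this comparison. The edgeR exact test called 0.115% of genes higher and 1.57% lower, among them *Mcam*, and DESeq2 called 0.299% higher and 1.87% lower, among them *Cd24a* and *Mcam*. The quasi-likelihood fit of all 12 libraries called 0.0778% higher and 1.31% lower, among them *Mcam*. Libraries with the same replicate number deviated together in this comparison. With the replicate number as a block, *Cd24a* was called higher and *Epcam* and *Mcam* lower in mutants, in a fit that called 3.2% of all genes higher and 4.92% lower.

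*Mcam* was at 320.9, 289.1 and 223.8 CPM in control Thy1+ and 178.1, 187.0 and 162.0 CPM in mutant Thy1+ libraries. Every mutant library was below every control library. The log2 fold change was -0.66 ± 0.14 without the block (FDR = 0.20) and -0.64 ± 0.06 with it (FDR = 4.6e-06).

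*Cd24a* was at 36.7, 36.9 and 38.2 CPM in control Thy1+ and 52.4, 48.4 and 69.7 CPM in mutant Thy1+ libraries. Mutant libraries were higher in all 3 pairs and without overlap, by 0.61 ± 0.15 on the log2 scale without the block (FDR = 0.24) and 0.59 ± 0.09 with it (FDR = 0.0001). *Epcam* was at 50.2, 73.1 and 60.6 CPM in control Thy1+ and 34.3, 49.1 and 38.4 CPM in mutant Thy1+ libraries. In both groups replicate 2 was highest and replicate 1 lowest, and the log2 fold change was -0.59 ± 0.19 without the block (FDR = 0.32) and -0.59 ± 0.07 with it (FDR = 1.5e-05).

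*Adgra3* was higher in the mutant of all 3 same-numbered pairs, although the groups overlapped (179.7, 132.6 and 137.8 CPM in control Thy1+, 219.3, 162.1 and 178.8 CPM in mutant Thy1+ libraries). Its log2 fold change was 0.32 ± 0.05 with the block (FDR = 0.00022), under the minimum. With the block, *Cd9* (-0.25 ± 0.09, FDR = 0.038) passed the FDR but not the minimum, and without the block its FDR was 0.45. It was at 63.4 to 87.2 CPM in controls and 58.3 to 66.9 CPM in mutants. *Cdh1* passed neither threshold with the block (-0.41 ± 0.16, FDR = 0.071) or without it (FDR = 0.51). Its level was 6.61 to 8.68 CPM in controls and 4.26 to 7.21 CPM in mutants.

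*Thy1* RNA in the Thy1+ cells themselves was 12.6 ± 1.40 CPM in controls and 14.6 ± 2.45 CPM in mutants (SD, n = 3), with overlapping values. The interval of the log2 fold change ran from -0.18 to 0.62 without the block and from -0.07 to 0.50 with it. Since the cells were selected on the THY1 protein, this level is that of retained cells in both genotypes.

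In the blocked fit of Thy1+ cells, 9 of 10 markers of undifferentiated spermatogonia were called lower in mutants (among them *Gfra1*, *Nanos2* and *Zbtb16*) and 8 of 9 Sertoli cell markers higher. Of the differentiating spermatogonia markers 3 of 6 (*Rec8*, *Prdm9* and *Stra8*) and of the germ cell markers 1 of 7 (*Tex101*) were lower, and of the T cell markers 2 of 6 (*Cd4* and *Cd3g*) were higher. The summed level of the undifferentiated spermatogonia markers was 723.6 to 1002 CPM in controls and 463.5 to 591.7 CPM in mutants. Of the stromal markers 1 of 7, of the macrophage markers 1 of 7 and of the mast cell markers 1 of 4 were called higher, and none of the Leydig cell, peritubular myoid or endothelial markers was called. The part of these shifts in the values of *Mcam*, *Epcam* and *Cd24a* was not tested. Without the replicates numbered 1 of both Thy1+ groups, an alternative chosen after seeing the data, the unblocked log2 fold changes were -0.55 for *Mcam*, -0.61 for *Epcam* and 0.65 for *Cd24a*.

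**Figure D4:**
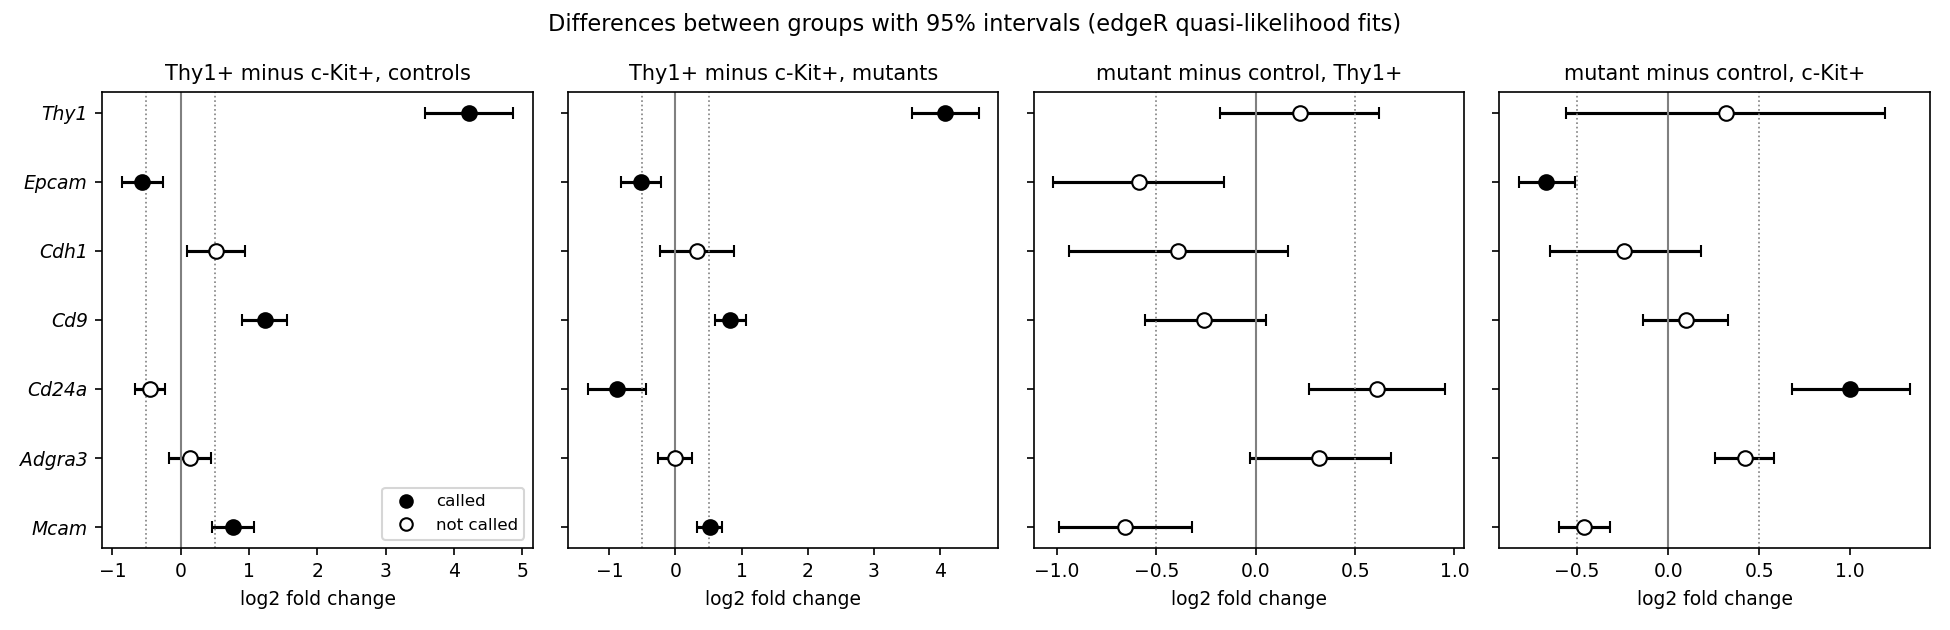
Log2 fold changes (x axis, scaled separately in each panel) of the 7 genes in 4 comparisons, from edgeR fits without the replicate block. Bars are 95% intervals, filled points passed both thresholds, and dotted lines mark the minimum of 0.5. *Cd24a* lay above 0 and *Epcam* and *Mcam* below 0 in mutants of both populations, with wider intervals in Thy1+ cells in these unblocked fits. With the block, the Thy1+ intervals were 0.41 to 0.78 for *Cd24a*, -0.73 to -0.44 for *Epcam* and -0.78 to -0.51 for *Mcam*. Those in c-Kit+ cells were then 0.71 to 1.25, -0.82 to -0.51 and -0.58 to -0.34 in the same order.

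Whether a marker responded differently to genotype in c-Kit+ than in Thy1+ cells was put to an interaction term over all 12 libraries, which called none of the 7 genes and 0.0% of 18002 genes (1804 at an unadjusted p under 0.05). DESeq2 called 0.356% of genes and the fit with the replicate block 2.48%, and neither called a member. Of the 7, *Cd9* alone had an unadjusted p under 0.05 (FDR = 0.47), with a difference of 0.42 and an interval from 0.04 to 0.80. *Cd24a* differed by 0.46, with an interval from -0.05 to 0.96 (FDR = 0.54). With the block, *Cd24a* differed by 0.45 with an interval from 0.01 to 0.88 (FDR = 0.27), and *Cd9* by 0.42 with an interval from 0.09 to 0.74 (FDR = 0.16). The interval was -0.45 to 0.42 for *Epcam* and -0.09 to 0.60 for *Mcam*. No difference between the populations in the response of a marker passed the FDR with 3 libraries a group.

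Across the 4 groups, the order of the levels differed from gene to gene. *Mcam* was highest in control Thy1+ cells (277.9 ± 49.5 CPM), alike in mutant Thy1+ (175.7 ± 12.7) and control c-Kit+ cells (167.2 ± 9.49), whose ranges overlapped, and lowest in mutant c-Kit+ cells (126.3 ± 2.77 CPM). *Epcam* followed another order, with control c-Kit+ cells first (91.7 ± 4.75 CPM), control Thy1+ (61.3 ± 11.5) and mutant c-Kit+ cells (60.2 ± 1.42) overlapping in between, and mutant Thy1+ cells last (40.6 ± 7.63 CPM). *Cd24a* was highest in mutant c-Kit+ cells (108.3 ± 25.4 CPM) and lowest in control Thy1+ cells (37.3 ± 0.819 CPM). The neighbouring groups of *Cdh1* and of *Adgra3* all overlapped in this order.

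The levels of the members were set beside those of the cell type lists, library by library. The correlations over the 12 libraries are descriptions, since the libraries share groups, depth and composition. *Thy1* had a Pearson r of 0.97 with the stromal list on the log2 scale, but 0.05 after the group means were subtracted, so the relation was that between the populations. The stromal list was not alone in this. The r of *Thy1* was 0.94 with the peritubular myoid, 0.91 with the macrophage and 0.86 with the endothelial list (-0.11, 0.48 and 0.02 within groups). With the undifferentiated and the differentiating spermatogonia list it was 0.76 and -0.87 (0.34 and 0.02 within groups). *Cd9* had an r of 0.92 with both the stromal and the peritubular myoid list, and of 0.13 and 0.41 within groups. Its r was also 0.84 with the macrophage, 0.83 with the endothelial and 0.82 with the undifferentiated spermatogonia list (0.0, 0.26 and 0.03 within groups). *Mcam* had an r of 0.97 with the undifferentiated spermatogonia list (0.77 within groups) and *Epcam* of 0.95 with the germ cell list (0.92 within groups) and 0.84 with the differentiating spermatogonia list (0.96 within groups). *Epcam* also ran against somatic lists, with an r of -0.90 with the endothelial, -0.85 with the peritubular myoid and -0.43 with the Sertoli cell list. Within groups these were -0.59, -0.91 and -0.83. *Adgra3* had an r of 0.90 with the Sertoli cell list and 0.97 within groups, and the 5 libraries with the highest Sertoli cell markers were also the 5 with the highest *Adgra3*. Within groups this was not particular to the Sertoli cell list. The r of *Adgra3* there was 0.93 with the peritubular myoid, -0.90 with the differentiating spermatogonia and -0.78 with the germ cell list. *Cd24a* had an r of 0.82 with the Leydig cell, 0.81 with the mast cell and -0.81 with the undifferentiated spermatogonia list (0.48, 0.31 and -0.18 within groups). Within groups its highest r was 0.71 with the stromal list, against -0.36 over the 12 libraries. *Cdh1* had an r of 0.82 with the undifferentiated spermatogonia list (0.55 within groups), and within groups its highest was 0.79 with the mast cell list. Which cells in these libraries held the RNA was not measured.

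**Figure D5:**
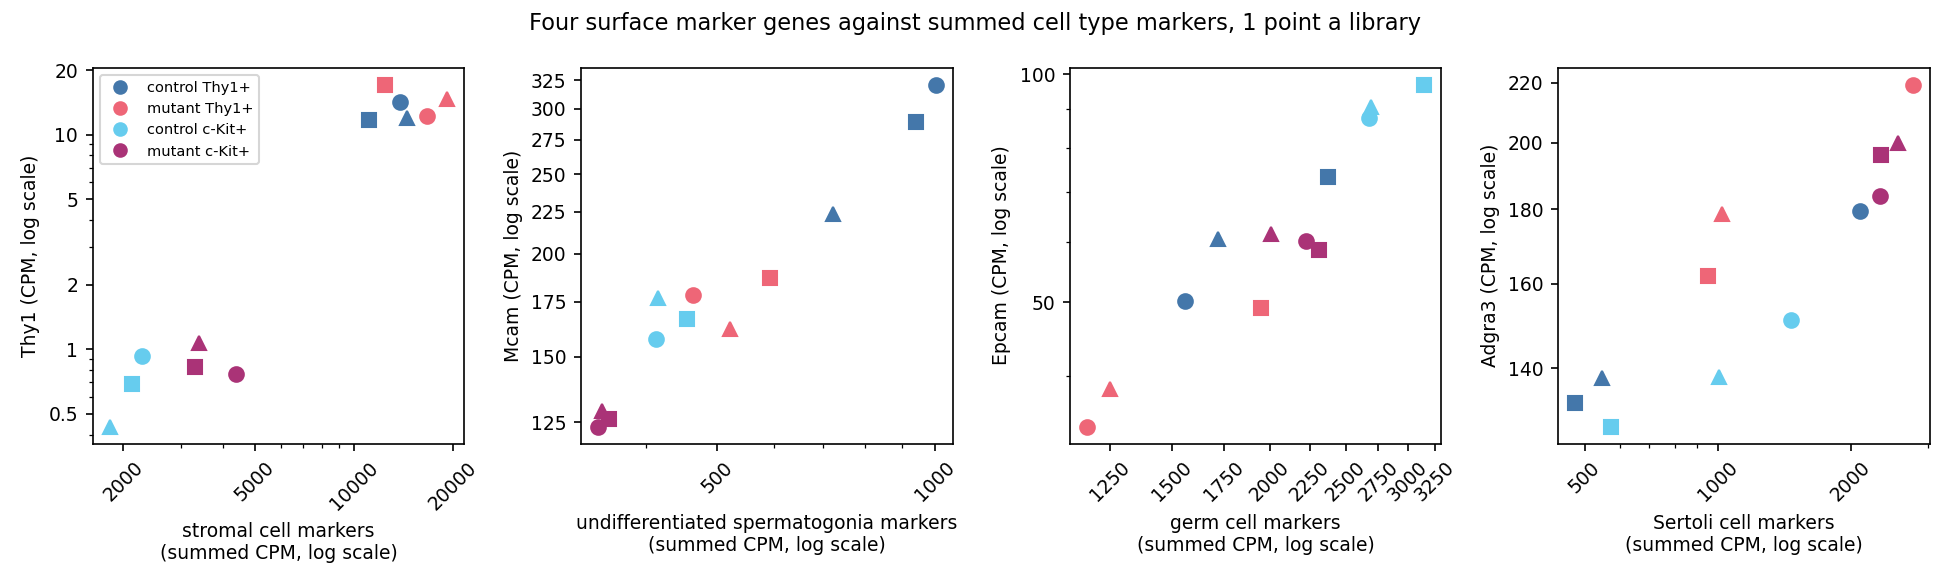
CPM of *Thy1*, *Mcam*, *Epcam* and *Adgra3* (y axes, log scale) against the summed CPM of a cell type list (x axes, log scale), 1 point a library, coloured by group, with circles, squares and triangles for replicates 1, 2 and 3. *Thy1* forms 1 cloud for each population, whereas *Mcam*, *Epcam* and *Adgra3* follow the list shown across groups. Correlations with other lists are given in the text.

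The genes most like each member were sought among 13675 other genes whose log2 CPM averaged 1 or more. *Postn*, *S100a6* and *Mfap5* were most like *Thy1* (r = 0.996 to 0.993). *Syce1* and *Tex11* (r = 0.992 for both), which act in meiotic chromosome pairing, and the gene with ID 246155, which has no symbol, were most like *Epcam*, and within groups their r was still 0.958 to 0.963. *Rab10* and *Pcyt1b* were most like *Adgra3* (r = 0.981 for both) and *Tmc8*, *Pde4c* and *Fbxo41* most like *Mcam* (0.970 to 0.964). *Cd9* was followed by *Anxa7*, *Ptgfrn* and *Chn2* (0.978 to 0.974), of which *Ptgfrn* encodes a direct binding partner of CD9, and *Cd24a* by *Chst2*, *Tm7sf2* and *Tmem176b* (0.973 to 0.969). *Cdh1* had no closer gene than *Pmm1* (0.897), *Gm15772* (0.889) and *Susd4* (0.884).

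Related surface proteins were counted by list. Between control populations, 5 of 9 other surface proteins of spermatogonia were called higher in Thy1+ cells (*Gfra1*, *Ret*, *Tspan8*, *Cxcr4* and *Itgb1*) and *Kit*, the other sorting antigen, lower. Of the tetraspanins and their partners 6 of 8 were called higher and none lower, namely *Cd63*, *Cd81*, *Cd82*, *Cd37*, *Cd53* and *Ptgfrn*, in the same direction as *Cd9*. Of the GPI-anchored proteins 8 of 9 were higher and *Ly6k* lower, and of the classical cadherins and catenins 4 of 9 were higher (*Cdh3*, *Cdh4*, *Cdh5* and *Cdh11*). Many of these, among them *Cd53* and *Cd37* of leukocytes, *Cdh5* of endothelium and *Cdh11* of stromal cells, are best known from somatic cells. *Adgra2*, the relative of *Adgra3*, was higher in Thy1+ cells by 2.20 on the log2 scale, unlike *Adgra3* itself.

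Of immunoglobulin-type adhesion molecules, 4 of 9 were called higher in control Thy1+ cells (*Vcam1*, *Bcam*, *Icam1* and *Ncam1*) and *Alcam* lower. Between the genotypes of c-Kit+ cells, *Pecam1*, *Vcam1*, *Nectin2* and *Bcam* were called higher and *Alcam* lower, whereas *Mcam* was not called. The relative and claudin partners of EPCAM were scarce, summing to 1.98 to 4.40 CPM in all libraries, and *Cldn3* was called lower in mutant c-Kit+ cells as *Epcam* was. Of the tetraspanins and their partners, *Cd82*, *Cd53* and *Cd81* were called higher there, while *Cd9* was not called. Among the GPI-anchored proteins, *Ly6e*, *Ly6c1* and *Cd59a* rose with *Cd24a* in mutant c-Kit+ cells and *Ly6k* fell.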

How the data were processed

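RNA-seq counts of 12 libraries were analysed. The authors made poly(A) libraries with a directional kit and, per the submitters' processing notes, used Trimmomatic 0.39 for trimming and HISAT2 2.1.0 for alignment to mm10, and counted reads on RefSeq exons with featureCounts (2.0.3 per the header), so the deposited file holds raw counts. All count columns were mapped to a sample. Genes were tested with edgeR 4.0.16 in R 4.3.3 (quasi-likelihood F test, TMM, filterByExpr, Benjamini-Hochberg adjustment over all genes tested), called at an FDR below 0.05 with a log2 fold change beyond 0.5 in either direction, and with no minimum for the interaction. Each comparison was fitted on its own 6 libraries and the interaction on all 12. The steps were tested on simulated data.

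All 7 genes are named, listed genes are given as counts, and the 3 genes most like each member are named by Pearson r, of which 1 is not reported here. The members and lists were chosen with earlier results of these data known. Levels are CPM, also per kb of full exon length.

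The labels do not say that same-numbered libraries belong together. After subtraction of group means they correlated at 0.266 to 0.490 between genotypes in Thy1+ cells, 0.101 to 0.125 in c-Kit+ cells and 0.134 to 0.298 between control populations, all over the limit of 0.1, and were taken to be paired. Values are from the fits without the block unless the block is named. Same-numbered libraries were not taken to be paired between mutant populations (0.0211 to 0.204) or for the interaction. Alternatives were DESeq2 1.42.0, the edgeR exact test, other normalizations and filters, a fit of all 12 libraries, no minimum fold change, the replicate block and leaving out libraries.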

Additional observations from a re-analysis of the deposited data

How the results depend on the processing

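Of 559 log2 fold changes of the 7 genes under the alternatives, 519 kept their direction and their side of the thresholds, 11 lost a call, 15 gained one and 14 changed sign. Between genotypes in Thy1+ cells, where the unblocked test called 0 of the 7, the exact test called 1, DESeq2 2, the fit of all 12 libraries 1 and the replicate block 3, and leaving out 1 library gave 0 to 0. In c-Kit+ cells, dropping the minimum fold change raised the called genes from 2 to 4, since *Mcam* and *Adgra3* lie under it, and leaving out 1 library gave 2 to 3. Leaving out 1 library gave 3 to 5 called genes between control populations (4 with all libraries), 3 to 4 between mutant populations (5 with all libraries, 3 without mutant c-Kit+ replicate 1) and 0 to 0 for the interaction. The replicate block raised the control populations to 5 by adding *Cdh1*, and apart from it and the 3 genes of Thy1+ cells changed no call of a member. Scaling by library size alone called *Cd24a* between control populations (-0.54) and lost *Mcam* between mutant populations (0.44), as did the fit of all 12 libraries (0.48). Over all genes, the Thy1+ genotype comparison called 0 in the unblocked quasi-likelihood fit, 294 in the exact test, 378 in DESeq2, 250 in the fit of all 12 libraries and 1414 with the replicate block, and 10 without control Thy1+ replicate 1. The interaction called 0, 64 (DESeq2) and 446 (replicate block). With no minimum fold change, the c-Kit+ genotype comparison called 6710 against 3812, and leaving out 1 library gave 2341 (without mutant c-Kit+ replicate 2) to 5017 against 3525 between mutant populations. The cause of these changes was not tested.

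The sign changed only in values that no test called. Leaving out 1 library gave -0.04 to 0.18 for *Adgra3* between control populations, -0.12 to 0.09 for *Adgra3* between mutant populations (0.00063 with no filter on low counts) and -0.00067 to 0.15 for *Cd9* between genotypes in c-Kit+ cells. For the interaction it gave -0.08 to 0.44 for *Thy1*, -0.25 to 0.15 for *Epcam* and -0.04 to 0.43 for *Cdh1*. Without the replicates numbered 1 of both Thy1+ groups, an alternative chosen after seeing the data, the interaction was -0.05 for *Thy1* and 0.0029 for *Epcam*, and no member was called in it or between genotypes in Thy1+ cells. The exact test could not be run for the interaction. Depth limits *Thy1* in c-Kit+ cells and *Cdh1* in all groups most. Leaving out a library leaves its group with 2.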
